A study of Mus musculus with 6 samples.

Results

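The 9 genes described here encode receptors for the colony-stimulating factors (Csf1r, Csf2ra and Csf2rb) and transcription factors that set macrophage identity (Spi1, Cebpa, Cebpb, Maf, Runx1 and Mitf). They were taken by gene symbol from a table of 56691 genes, and each symbol matched 1 row. Expression was measured by RNA sequencing in 6 libraries of wild-type mouse macrophages of a cell line labelled RAW246.7. All 6 came from cells first exposed to lipopolysaccharide (LPS), a trigger of inflammatory activation from bacterial outer membranes, which then spent 24 h on a hydrogel. The gel was MSA-ZW for 3 libraries and MSA-DA for the other 3, and a gene is called lower or higher by its level on MSA-DA. By its title, the series concerns macroporous hydrogels that take up protein to different extents, the fibrin networks on them and macrophage function, so the comparison asks how the 2 gels differed in macrophage gene expression. No library from unpretreated cells or from cells off a gel was analysed, so the pretreatment and culture on a gel are shared by both groups. The labels do not say whether the 3 libraries of a gel were grown separately, so every p-value here reflects the spread between libraries, which could be technical.

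Csf1r is the tyrosine kinase receptor for CSF1 and IL-34, the growth factors on which most macrophages depend for survival. Csf2ra and Csf2rb form the receptor for GM-CSF, in which the alpha chain gives specificity and the beta chain, shared with other cytokine receptors, carries the signal. PU.1, the product of Spi1, opens myeloid enhancers together with C/EBP factors and RUNX1 and drives transcription of Csf1r itself, whereas MAF and MITF act later, in resident-type macrophages and osteoclasts.

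Promoter sequences from RefSeq (build GRCm38.p6) were matched by symbol for 5 of the 9 genes, Csf2ra, Cebpa, Cebpb, Runx1 and Mitf, and for Csf2rb2, the neighbouring copy of Csf2rb. The promoters of Csf2ra and Csf2rb2 are shown because these receptor chains hold the GAGGAA core that PU.1 reads, and a Mitf promoter because it holds letters read by RUNX1 and MAF. Each sequence runs 5′ to 3′ on the gene's strand over the 250 bases before the annotated start.
Csf2ra, chr19:61228419-61228668, minus strand: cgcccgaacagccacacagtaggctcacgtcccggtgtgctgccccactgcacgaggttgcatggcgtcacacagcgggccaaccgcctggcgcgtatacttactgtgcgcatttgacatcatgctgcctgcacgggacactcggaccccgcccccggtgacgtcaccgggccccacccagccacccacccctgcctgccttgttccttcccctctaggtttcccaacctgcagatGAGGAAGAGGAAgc
Csf2rb2, chr15:78305722-78305971, minus strand: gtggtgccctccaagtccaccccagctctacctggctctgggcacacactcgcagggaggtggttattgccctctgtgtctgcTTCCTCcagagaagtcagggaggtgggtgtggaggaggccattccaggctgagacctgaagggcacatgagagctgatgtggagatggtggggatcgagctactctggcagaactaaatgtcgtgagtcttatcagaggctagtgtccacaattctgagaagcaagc
Mitf, first of 3 starts, chr6:97806808-97807057, plus strand: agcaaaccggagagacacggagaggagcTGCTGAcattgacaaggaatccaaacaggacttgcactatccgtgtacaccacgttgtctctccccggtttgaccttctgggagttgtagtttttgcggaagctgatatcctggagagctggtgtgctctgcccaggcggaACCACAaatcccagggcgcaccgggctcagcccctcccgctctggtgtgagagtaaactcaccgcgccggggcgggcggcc
Capitals mark GAGGAA or its reverse complement in the receptor promoters, and TGCTGA, one arm of the MAF recognition element, and the reverse complement of the RUNX letters TGTGGT in that of Mitf.

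In the Csf2ra promoter the 2 GAGGAA matches lay side by side from 14 to 3 bases before the start, and in that of Csf2rb2 the single match began 167 bases before it. Both strands were searched, and GAGGAA occurred in 23.3% of the 32851 promoter windows of the same length in the table, TGCTGA in 16.1% and TGTGGT in 14%. Of the other windows, 1 of the 2 Runx1 starts held GAGGAA and the other the E-box CACGTG, which MITF can read and which 6.02% of windows hold. The other Mitf starts held TGCTGA (start 2) and TATAAA (start 3). Cebpa held TATAAA 30 to 25 bases before its start (12.4% of windows). Cebpb held none of the 9 motifs searched, Csf2rb2 also held TCATGTG, and Csf2ra and the Mitf window above also held the loose C/EBP letters. The others were GAGGAAGT (2.44% of windows), which contains GAGGAA, the C/EBP letters TTGCGCAA (0.164%) and their loose form TTNNGNAA (36.8%), and TCATGTG (3.25%). A match describes letters only, and the counts below are per gene and cannot separate the 3 Mitf starts.

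The levels of the 9 genes spanned a wide range, with Csf1r the most abundant and Maf close to the limit of detection. On the FPKM scale, which divides counts by gene length and by library total, Csf1r averaged 174.6 over the 6 libraries, above 98.2% of the 12467 genes tested. Spi1 followed at a level of 62.1 FPKM, above 93.7% of tested genes, and Cebpb at 20.4 FPKM. Csf2ra, Csf2rb, Cebpa, Mitf and Runx1 had mean levels of 10.9, 7.60, 6.58, 6.21 and 3.89 FPKM, so the factors and the GM-CSF receptor chains sat near the middle of the tested genes. Maf had a mean level of 0.272 FPKM, above 3.97% of tested genes. Csf1r, Spi1, Cebpb, Csf2ra and Csf2rb kept this order, with no overlap between neighbours over the 6 libraries. The ranges over the 6 libraries overlapped for Csf2rb and Cebpa and for Cebpa and Mitf, whereas Runx1 stayed under Mitf and above Maf in every library.

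**Figure D1:**
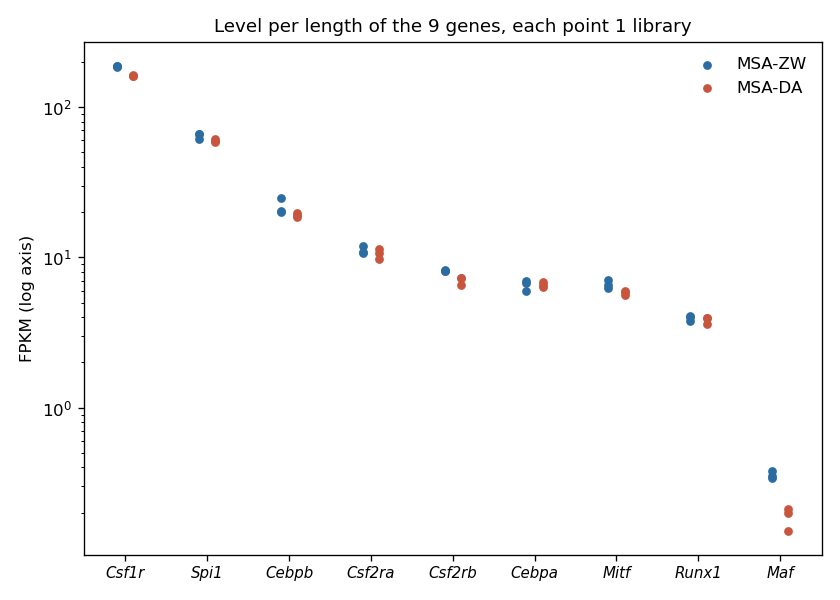
Level per length of each gene (FPKM, log axis), in order of the mean over 6 libraries, with 1 point per library in blue for MSA-ZW and red for MSA-DA. Csf1r stands highest at a mean of 174.6 FPKM and Maf lowest at 0.272 FPKM.

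Across the table, 13.4% of tested genes passed the edgeR quasi-likelihood test at an adjusted p below 0.05, in either direction, with 6.92% higher and 6.5% lower on MSA-DA. The share rose with level, from 2.13% of genes below a mean of 4 CPM to 26.8% of those at 64 CPM or more. Of the 9 genes, all of which had enough counts to be tested, 4 passed (Csf1r, Csf2rb, Spi1 and Maf), all of them lower on MSA-DA, and 5 did not. In 6 of the 9 the 3 MSA-DA libraries all lay below the 3 MSA-ZW libraries, against 13.7% of tested genes, and 28.4% of tested genes had groups that did not overlap when both directions were counted. Their median log2 difference was -0.17, beside a median of 0.00 over all tested genes, and the sizes were small except for Maf. The fall was 1.15-fold for Csf1r and Csf2rb, 1.08-fold for Spi1 and 1.87-fold for Maf. The RNA composition of the libraries also differed between the gels. Mitochondrial genes took 3.10% to 3.12% of counts on MSA-DA and 2.73% to 2.78% on MSA-ZW, the 18S ribosomal-RNA-like locus Rn18s-rs5 0.132% to 0.141% against 0.238% to 0.449%, and Lars2, which encodes the mitochondrial leucyl-tRNA synthetase, stood at 176 to 185 CPM against 269 to 1068 CPM. The MSA-ZW libraries also differed more among themselves, at a chi-square per degree of freedom of 2.63 to 4.22 between pairs, against 1.55 to 1.63 between MSA-DA pairs. With the mitochondrial genes and the ribosomal-RNA-like loci left out, Lars2 among them, the same 4 genes and Mitf passed.

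**Figure D2:**
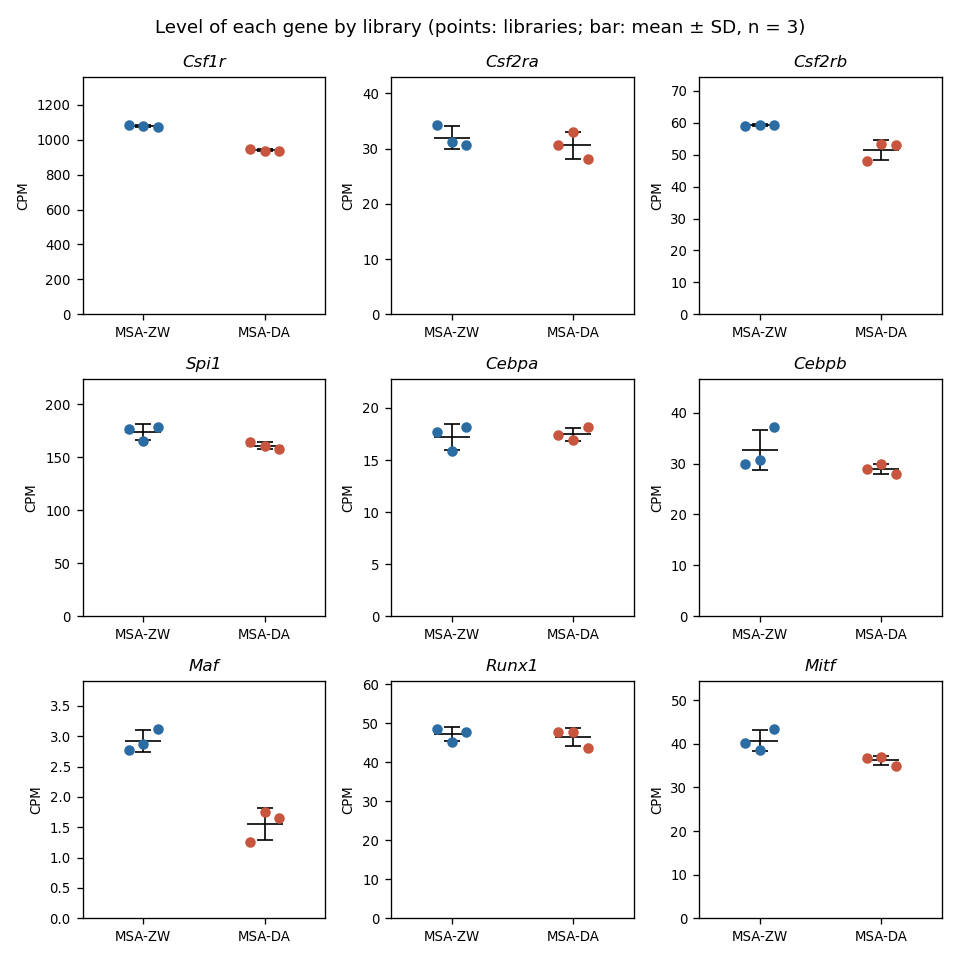
CPM (counts scaled to a common library size) of the 9 genes on MSA-ZW (blue) and MSA-DA (red), each point 1 library, with mean ± SD (n = 3) in black and every axis starting at 0. The groups are apart in Csf1r, Csf2rb, Spi1, Cebpb, Maf and Mitf, by less than 1 CPM in Spi1 and Cebpb, and overlap in Csf2ra, Cebpa and Runx1.

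The receptor for CSF1 was lower on MSA-DA in every library. Csf1r (ENSMUSG00000024621, chromosome 18, 61233670 to 61265221, GRCm39) stood at 946, 936 and 935 CPM on MSA-DA replicates 1 to 3 and at 1086, 1080.3 and 1073 CPM on MSA-ZW. The spread within each gel was small beside the gap between the gels. The mean levels were 939 ± 6.20 against 1080 ± 6.55 CPM (SD, n = 3). The log2 difference was -0.20 (standard error 0.02; edgeR adjusted p = 2.22e-08), which placed the gene at rank 63 by p among all tested genes. Csf1r carried 13540 to 19561 counts per library and was the deepest of the 9. It passed under all 15 alternative settings, with log2 differences from -0.21 to -0.15, the smallest once the GC content and length of transcripts were corrected for. Its last 873 bases overlap Hmgxb3 on the opposite strand, which had 850 to 1141 counts per library, and no source used here gives the strand setting of the counting.

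The genes whose profile over the 6 libraries was most like that of Csf1r were Lgals3bp, a secreted glycoprotein, Lsp1, an actin-binding protein of leukocytes, and Dgkz, a diacylglycerol kinase. Likeness was the root mean square difference of log2 CPM after centring each gene on its mean, and it was 0.014 for Lgals3bp and Lsp1 and 0.016 for Dgkz. Their levels on MSA-DA and MSA-ZW were 640.1 ± 11.2 and 732 ± 9.79 CPM for Lgals3bp, 29.9 ± 0.157 and 34.2 ± 0.384 CPM for Lsp1, and 259 ± 4.06 and 303 ± 1.04 CPM for Dgkz (SD, n = 3). All 3 were lower on MSA-DA in every library, which follows from choosing them by their likeness to Csf1r in these libraries.

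Of the GM-CSF receptor chains, the shared beta chain fell and the alpha chain did not pass the test. Csf2rb (ENSMUSG00000071713, chromosome 15, 78209952 to 78238047, GRCm39) stood at 48.0, 53.4 and 53.0 CPM on MSA-DA and at 58.9, 59.4 and 59.4 CPM on MSA-ZW. The MSA-ZW libraries were nearly identical, and MSA-DA replicate 1 was the lowest of all. The means were 51.5 ± 3.01 and 59.2 ± 0.267 CPM (SD, n = 3), and the log2 difference was -0.20 (standard error 0.05; edgeR adjusted p = 0.00579). Without MSA-DA replicate 1 the log2 difference was -0.16 and the call was lost (edgeR adjusted p = 0.0527), as it was with limma on log2(FPKM + 1) (limma adjusted p = 0.0527).

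Csf2rb2, the adjacent copy whose product serves as a beta chain for interleukin-3 in mice, was not 1 of the 9 but shares sequence with Csf2rb. Its mean CPM was 47.8 ± 0.233 (MSA-DA) and 54.2 ± 2.11 (MSA-ZW, both SD, n = 3), and the log2 difference was -0.18 (standard error 0.05; edgeR adjusted p = 0.0122). It lost its call once GC content and length were corrected for (edgeR adjusted p = 0.067). Both values are uncertain, because reads of such similar copies can be split between them. Il3ra, the alpha chain that would pair with these chains to bind interleukin-3, had 0 counts in every library, which allows a level of up to 0.164 to 0.210 CPM depending on the library (3 counts).

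Csf2ra (ENSMUSG00000059326, chromosome 19, 61212395 to 61216867, GRCm39) stood at 30.7, 32.9 and 28.1 CPM on MSA-DA and at 34.3, 31.1 and 30.6 CPM on MSA-ZW. The groups overlapped, with means of 30.6 ± 2.42 and 32.0 ± 2.04 CPM (SD, n = 3). The log2 difference was -0.06 with a 95% interval from -0.20 to 0.08 (edgeR adjusted p = 0.642). That interval holds both no change and a fall as large as that of Csf2rb, so these data do not separate the alpha chain from the beta chain.

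Among the lineage factors, Spi1 was slightly lower on MSA-DA. Spi1, which encodes PU.1 (ENSMUSG00000002111, chromosome 2, 90912735 to 90946101, GRCm39), stood at 164.9, 161 and 158 CPM on MSA-DA and at 177, 165.1 and 179 CPM on MSA-ZW. The groups barely missed overlapping, since MSA-ZW replicate 2 lay just above MSA-DA replicate 1. The means were 161 ± 3.57 and 174 ± 7.53 CPM (SD, n = 3), and the log2 difference was -0.11 (standard error 0.03; edgeR adjusted p = 0.0266). The call was lost in 9 of the 15 alternatives, and once GC content and length were corrected for the log2 difference was -0.04 (edgeR adjusted p = 0.463). It was also lost without MSA-DA replicate 2 or 3 and without MSA-ZW replicate 1 or 3, with edgeR adjusted p of 0.0906, 0.116, 0.0835 and 0.0669.

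The C/EBP factors did not pass the test. Cebpa, which commits progenitors to the myeloid line (ENSMUSG00000034957, chromosome 7, 34818718 to 34821353, GRCm39), stood at 17.4, 16.9 and 18.1 CPM on MSA-DA and at 17.6, 15.9 and 18.2 CPM on MSA-ZW. The groups overlapped fully. The log2 difference was 0.02 with a 95% interval from -0.16 to 0.19 (edgeR adjusted p = 0.932), and its sign turned without MSA-DA replicate 3 or without MSA-ZW replicate 2.

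Cebpb, which is induced in activated macrophages (ENSMUSG00000056501, chromosome 2, 167530835 to 167532338, GRCm39), stood at 29.0, 29.8 and 27.9 CPM on MSA-DA and at 30.0, 30.7 and 37.2 CPM on MSA-ZW. MSA-ZW replicate 3 was far above the other 5 libraries, which lay close together. The means were 28.9 ± 0.987 and 32.6 ± 3.996 CPM (SD, n = 3). The log2 difference was -0.18 with a 95% interval from -0.33 to -0.03, and it did not pass after adjustment over all genes (edgeR adjusted p = 0.107). Without MSA-ZW replicate 3 it was -0.07 (edgeR adjusted p = 0.631), and without MSA-ZW replicate 1 it was -0.24 and passed (edgeR adjusted p = 0.0458). Of its span, 908 bases overlap Peds1 on the opposite strand, which had 1646 to 2142 counts per library, more than the 415 to 679 counts of Cebpb. Reads within those 908 bases may not be told apart without a strand setting, and how many lay there was not tested.

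Runx1, a partner of PU.1 and C/EBP factors at myeloid enhancers (ENSMUSG00000022952, chromosome 16, 92398354 to 92623037, GRCm39), stood at 47.8, 47.8 and 43.7 CPM on MSA-DA and at 48.6, 45.2 and 47.7 CPM on MSA-ZW. The groups overlapped. The log2 difference was -0.02 with a 95% interval from -0.13 to 0.09 (edgeR adjusted p = 0.848), which excludes a fall as large as the estimate for Csf1r, and its sign turned without MSA-DA replicate 3.

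Maf had the largest relative difference of the 9 genes and by far the fewest counts. It encodes the factor c-MAF, which drives IL-10 and resident-type macrophage genes (ENSMUSG00000055435, chromosome 8, 116409681 to 116434533, GRCm39). The raw counts were 18, 32 and 26 on MSA-DA and 46, 47 and 57 on MSA-ZW. Scaled to library size, these are 1.26, 1.75 and 1.65 CPM against 2.78, 2.88 and 3.13 CPM, so every MSA-DA library lay well below every MSA-ZW library. The means were 1.55 ± 0.260 and 2.93 ± 0.179 CPM (SD, n = 3). The log2 difference was -0.90 with a 95% interval from -1.38 to -0.42 (edgeR adjusted p = 0.00882), larger in size than that of 99.4% of tested genes, although genes of low count spread more. Without MSA-DA replicate 1 it was -0.79 and just missed the threshold (edgeR adjusted p = 0.0503). DESeq2 gave -0.91 with no adjusted p, and the FPKM filter of the limma fits left Maf out.

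Mitf, a factor of osteoclasts, melanocytes and mast cells that also regulates lysosomal genes (ENSMUSG00000035158, chromosome 6, 97784013 to 97998310, GRCm39), stood at 36.8, 36.9 and 35.0 CPM on MSA-DA and at 40.1, 38.7 and 43.5 CPM on MSA-ZW. Every MSA-DA library lay below every MSA-ZW library. The means were 36.3 ± 1.07 and 40.8 ± 2.47 CPM (SD, n = 3). The log2 difference of -0.17, with a 95% interval from -0.29 to -0.05, narrowly missed the threshold (edgeR adjusted p = 0.0533). It passed once GC content and length were corrected for, at -0.21 (edgeR adjusted p = 0.015), without mitochondrial and ribosomal-RNA-like genes (0.0446) and without MSA-ZW replicate 2 (0.0332). In 11 of the 15 alternatives Mitf did not pass, among them DESeq2 (DESeq2 adjusted p = 0.145) and limma on log2(FPKM + 1) (limma adjusted p = 0.116). On leaving out 1 library its log2 difference ranged from -0.21 to -0.12, and the edgeR adjusted p reached 0.256. Mitf transcripts are 43.4% GC and those of Spi1 58.9%, against a median of 49.1% over tested genes. Across tested genes, which are not independent replicates, log2 differences fell with GC content (Spearman rho = -0.317). With GC content and length corrected for together, the count of calls was 4, with Mitf in the place of Spi1, and 3 of the 4 were shared. The part of GC content alone was not tested.

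**Figure D3:**
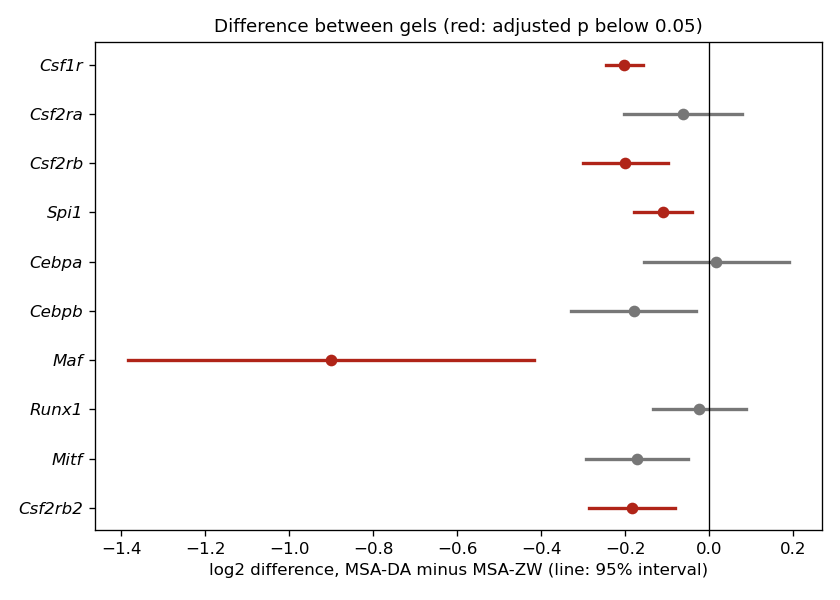
Log2 difference between the gels for the 9 genes and for Csf2rb2, with its 95% interval as a line and in red where the edgeR adjusted p is below 0.05. Maf lies farthest from 0 with the widest interval, the intervals of Csf2ra, Cebpa and Runx1 cross 0, and those of Cebpb and Mitf do not although neither gene passed.

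The ligands of these receptors were low or undetected in the same libraries. Csf1 averaged 4.56 ± 0.227 CPM for MSA-DA against 4.89 ± 0.472 CPM for MSA-ZW (SD, n = 3; edgeR adjusted p = 0.766). Il34 had 2, 1 and 2 counts against 0, 0 and 3, and Csf2, which encodes GM-CSF, had 0 counts in all 6 libraries, so at this depth a difference could not be detected. Of 10 ligands and other receptor chains, 4 could be tested, and Csf2rb2 alone passed, as lower.

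Genes that carry signals from these receptors were called at about the share of all tested genes. Of 27 tested transducers, 4 were lower, 0 were higher and 23 did not pass (14.8% called, beside 13.4%). Of all tested genes at a mean of 64 CPM or more, 26.8% were called. The median log2 difference of the 27 was -0.07, beside 0.00 for all tested genes. Inpp5d, the lipid phosphatase SHIP1 that restrains growth factor signals, fell from 182 ± 6.82 to 159 ± 2.58 CPM, or 1.14-fold, and the endocytic adaptor Dab2 was 1.10-fold lower (SD, n = 3). The Src-family kinase Fgr fell from 6.01 ± 1.10 to 4.01 ± 0.626 CPM, or 1.51-fold (SD, n = 3), a call lost in 4 of the 14 alternatives that gave it an adjusted p, 2 of which left out MSA-DA replicate 3 or MSA-ZW replicate 3. The other call was Lyn, a kinase of the same family chosen for naming after its values were seen, which lost its call in 9 of 15 alternatives. With GC content and length corrected for, 6 of the 27 were lower and 1 higher. With DESeq2 2 were lower, as without MSA-DA replicate 3 and with limma on log2(FPKM + 1), and with limma on log2(FPKM + 0.1) 1 was lower.

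Of 24 other myeloid transcription factors with enough counts, 3 were lower, 1 was higher and 20 did not pass, a share of 16.7% called beside 13.4% of all tested genes. The 4 calls became 2 without MSA-DA replicate 2 or 3 and with limma at either pseudocount, and 6 without MSA-ZW replicate 3. Irf8, which pairs with PU.1 on composite DNA sites, was the clearest of them, falling 1.24-fold from 66.5 ± 0.432 to 53.8 ± 1.73 CPM (SD, n = 3), with an edgeR adjusted p = 1.19e-05. The ETS factor Elf4 was 1.16-fold lower and the zinc finger factor Zeb2, which maintains tissue macrophage identity, 1.08-fold higher, a call lost in 6 of 15 alternatives. Ikzf1, a zinc finger factor of blood cells chosen for naming after its values were seen, was 1.07-fold lower and lost its call in 6 of 15 alternatives.

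Few target genes of the factors had enough counts to be tested. Of 14 genes that MITF-family factors are known to drive, 7 could be tested and 3 were called. That was 42.9%, beside 13.4% of all tested genes and 26.8% of those at a mean of 64 CPM or more. Gpnmb, a glycoprotein of lysosome-rich macrophages, rose 1.05-fold, Ostm1, a lysosomal membrane protein, rose 1.12-fold, and Acp5, the acid phosphatase of osteoclasts, fell 2.36-fold from 1.14 ± 0.166 to 0.481 ± 0.0943 CPM (SD, n = 3). Gpnmb lost its call in 3 and Ostm1 in 11 of 15 alternatives, and Acp5 in 6 of the 12 that gave it an adjusted p. The calls in this list fell from 3 to 0 without MSA-DA replicate 1 and with limma at either pseudocount, and to 1 with DESeq2, with the replicate block and the GC and length correction together, and without MSA-DA replicate 2 or 3 or MSA-ZW replicate 1 or 2. Of 10 targets of MAF-family factors, 2 had enough counts and 1 was called. That was 50%, beside 13.4% of all tested genes and 26.8% of those at a mean of 64 CPM or more. Msr1, the scavenger receptor, was 1.09-fold lower. The other, Cd5l, named after its values were seen, did not pass (log2 difference 0.06, edgeR adjusted p = 0.933). The complement genes C1qa, C1qb and C1qc had 0 or 1 count in each library.

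**Figure D4:**
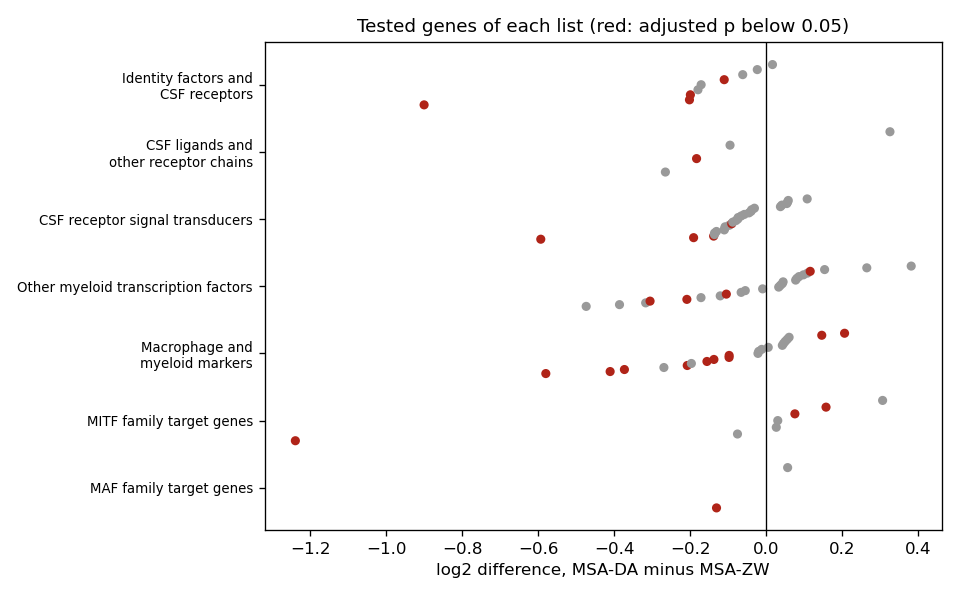
Log2 difference, MSA-DA minus MSA-ZW, of each tested gene (1 point) in the 9 genes and 6 related lists, red where the edgeR adjusted p is below 0.05. Of the 9 genes 4 are red, all below 0, and the related lists hold 18 genes lower and 5 higher among 85 tested.

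Most myeloid markers were detected, and most markers of other cell types were at or near 0. The exceptions were the kinase Lck, the granulocyte marker S100a8 and, at about the level of Maf, the B cell factor Pax5. Count totals ranged from 14374912 to 18346615 per library. The defining markers Adgre1, Cd68, Itgam, Lyz2, Ptprc, Fcgr1 and Cd14 were all tested. The 25 myeloid markers had a summed level of 4005 to 4032 FPKM on MSA-DA and 4488 to 4582 FPKM on MSA-ZW. Most of that gap was Lyz2, at a mean of 1339 FPKM on MSA-DA and 1743 FPKM on MSA-ZW, whereas Cd68 stood at 484 and 468 FPKM. Among 21 tested markers 8 were lower, 2 higher and 11 did not pass. The share called was 47.6%, beside 13.4% of all tested genes and 26.8% of those at a mean of 64 CPM or more. The other 4 had too few counts to be tested, 1 of them 0 in every library. Lyz2, the macrophage lysozyme, Fcgr1, the high-affinity IgG receptor, and Siglec1 were the clearest of them, at 1.29-fold, 1.33-fold and 1.49-fold lower, while the integrin Itgam and Sirpa, named after their values were seen, were 1.15-fold and 1.11-fold higher. Of the granulocyte markers Mpo and S100a9 had 0 counts, and the summed level of the 10 was 2.12 to 2.74 FPKM on MSA-DA and at most 2.04 FPKM on MSA-ZW. Most of that sum was S100a8, whose groups overlapped and which did not pass (edgeR adjusted p = 0.664). The 7 dendritic cell markers summed to at most 0.19 FPKM in any library, the 8 mast cell and erythroid markers to at most 0.24 FPKM with Kit, Gata1 and Hbb-bs at 0, and the 12 fibroblast, endothelial and epithelial markers to at most 0.42 FPKM. The 9 B and T cell markers summed to 3.35 to 4.19 FPKM on MSA-DA and 3.75 to 4.28 FPKM on MSA-ZW, with Cd3g and Cd8a at 0. Nearly all of that sum was Lck, a Src-family kinase of T cells, named after its values were seen, at 3.06, 3.98 and 3.95 FPKM on MSA-DA and 3.95, 3.34 and 3.40 FPKM on MSA-ZW. Its groups overlapped, and its level was close to that of Runx1. Pax5, also named after its values were seen, had 23 to 58 counts per library. Its mean was 0.243 FPKM, beside 0.272 FPKM for Maf, and it did not pass (edgeR adjusted p = 0.193). In such bulk libraries fewer cells with a transcript and less transcript per cell cannot be told apart.

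**Figure D5:**
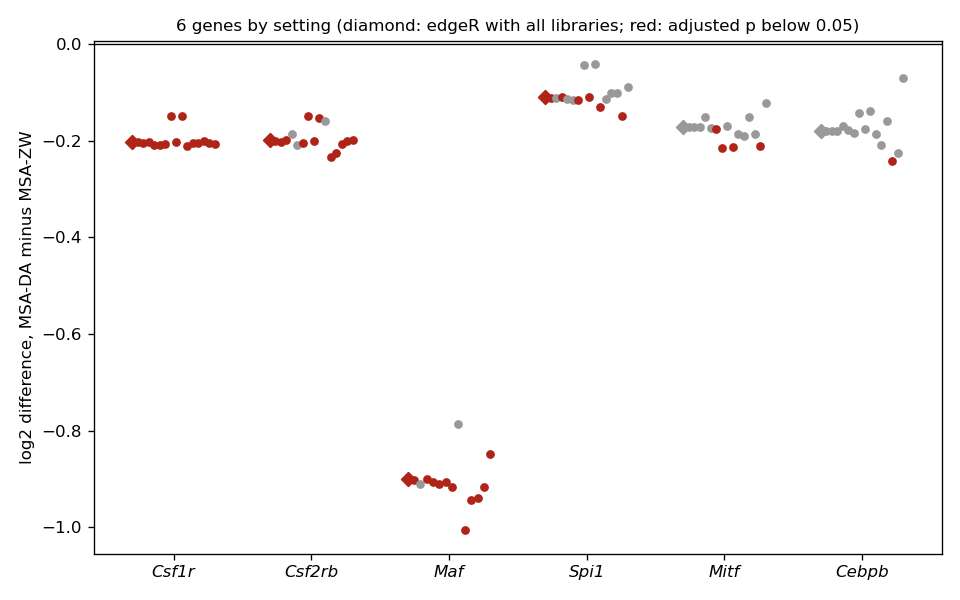
Log2 difference of 6 genes under each setting, with the edgeR fit to all libraries as a diamond, alternatives as circles, and red where the adjusted p is below 0.05 (for Maf the gray circle near the diamond is DESeq2, which gave no adjusted p, and the other is the fit without MSA-DA replicate 1). Every value of the 6 genes is below 0, and Csf1r is red throughout, whereas the other 5 change color between settings.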

How the data were processed

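The submitters' processing notes name HISAT2 2.2.1, cutadapt 1.9.1, bcl2fastq 2.20.0.422 and the genome build GRCm39. How reads were counted, with which annotation and on which strand no source used here says. Raw counts and FPKM values per gene were deposited by the authors, per the file headers. Libraries were grouped by title, 3 per gel.

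All genes passing filterByExpr were fitted in edgeR 4.0.16 (R 4.3.3) with TMM scaling, glmQLFit, glmQLFTest and group as the only term, and p-values were adjusted by Benjamini-Hochberg over 12467 genes with a threshold of 0.05. CPM uses TMM-scaled library sizes. The standard error is the log2 difference divided by the square root of F, and intervals use its degrees of freedom. The fit was tested on simulated counts. Alternatives used DESeq2 1.42.0, limma 3.58.1 on log2(FPKM + 1) or log2(FPKM + 0.1) restricted to genes reaching an FPKM of 1 in 3 libraries, RLE factors, no filter, fewer genes, GC content and length of the longest GENCODE M21 transcript (98.9% of tested genes), a replicate block and leaving out each library.

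Members and gene lists were chosen with earlier results of these data known. A few genes of the related lists are not reported here and were left out of the lists' counts and sums. Besides the 9 genes, the rule named up to 3 called genes per list by smallest p, Csf1, Il34, Csf2 and Csf2rb2, and the 3 genes most like the member of smallest p. Promoters were read from RefSeq GRCm38.p6, and no coordinates were converted between builds.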

Additional observations from a re-analysis of the deposited data

How the results depend on the processing

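The count of called genes was 1673 of 12467 tested in the edgeR fit to all libraries and 964 of 6221 given an adjusted p in DESeq2. It was 906 and 895 of 10874 tested in the limma fits to log2(FPKM + 1) and log2(FPKM + 0.1). These counts therefore rest on different numbers of genes. On leaving out 1 library it was 1001 to 1654 (1001 without MSA-DA replicate 2, 1065 without MSA-DA replicate 3). Of the 9 genes 4 were called. DESeq2 called 2 of the 7 it gave an adjusted p, and limma 1 of the 8 it tested, at either pseudocount. On leaving out 1 library 2 to 5 were called, with the 2 being Csf1r and Spi1 without MSA-DA replicate 1. In the related lists 23 of 85 tested genes were called, 14 and 12 of 74 with limma at pseudocounts 1 and 0.1, and 17 to 24 on leaving out 1 library. Signs turned for 3 genes that were not called. Csf2ra went to 0.0030 once GC content and length were corrected for, Cebpa ranged from -0.042 to 0.059 and Runx1 from -0.055 to 0.014 on leaving out 1 library. The cause of these moves was not tested, except that leaving out a library leaves fewer samples.

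The replicate number as a block gave 1594 called genes and 4 of the 9, the same 4. Deviations of same-numbered libraries from their group means correlated at 0.0109, 0.0167 and -0.0025, and those of different-numbered libraries at -0.0373 to 0.0254. No pairing by number was seen, although such values cannot exclude a shared batch.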

Other observations

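Ratios of FPKM between the genes give their balance within each library, without a test. The level of Csf1r was 2.68, 2.72 and 2.77 times that of Spi1 on MSA-DA and 2.86, 3.05 and 2.80 times on MSA-ZW. The ratio was thus lower in all 3 MSA-DA libraries, although 2.77 lay close to 2.80. Spi1 to Cebpa (9.03 ± 0.446 against 9.88 ± 0.288) and Spi1 to Runx1 (15.5 ± 0.575 against 16.4 ± 0.263) were also lower in all 3 MSA-DA libraries (SD, n = 3). Csf1r to Csf2rb was 23.0 ± 1.55 for MSA-DA against 23.0 ± 0.235 for MSA-ZW (SD, n = 3), and the libraries overlapped. Cebpb to Cebpa was 2.90 ± 0.201 and 3.32 ± 0.311, also with overlap. The libraries overlapped too for Csf1r to Csf2ra, Csf2ra to Csf2rb, Csf2rb2 to Csf2rb and Spi1 to Cebpb.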
